A study of Mus musculus with 151 samples.

Results

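*Rprm*, the gene of the p53-inducible cell-cycle arrest protein Reprimo, was described in single cochlear hair cells together with 9 genes of cell-cycle exit and p53 signalling. The 9 are its paralogue *Rprml*, *Trp53*, the cyclin-dependent kinase inhibitor genes *Cdkn1a*, *Cdkn1b* and *Cdkn2d*, *Rb1*, *Ccnd1*, *Gadd45a* and *Mdm2*. These are 10 of the 55291 genes in the deposited count table. *Rprm* was chosen because earlier values of these cells showed it lost both in induced outer hair cells and in older inner hair cells, so its levels below are a description. The others were taken for their known roles, with the same results in view.

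The cells were 55 P14_WT IHCs and 50 P30_WT IHCs, inner hair cells (IHCs) at postnatal day 14 and day 30 of vGlut3-P2A-iCreER/+; Ai9/+ mice, and 46 P14_iOHCs, induced outer hair cells at day 14 of vGlut3-P2A-iCreER/+; Tbx2 flox/-; Ai9/+ mice. All mice were C57BL/6 and received tamoxifen shortly after birth, which turned on the Tdtomato reporter of Ai9 in cells with the *Slc17a8* (vGlut3) driven Cre, in this tissue the IHCs. In the Tbx2 flox/- mice the same step deleted the floxed copy of *Tbx2*, a transcription factor gene of IHCs, in addition to the germ-line null copy that every cell of those mice carries, and the labels name these cells iOHCs that came from IHCs. Tdtomato+ cells were picked by hand into 1 library each, and in the Tbx2 flox/- mice the smaller ones were taken and the larger ones left. The labels name no animal for any cell. Cells of 1 group therefore stand for 1 sample here, and no test was possible. Intervals of levels and ratios treat reads as independent counts. The reads carry no molecular identifiers, so copies of 1 molecule are counted apart and these intervals may be too narrow even for counting error. Intervals of shares treat the cells of a group as independent. None of the intervals covers the spread between mice.

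Hair cells leave the cell cycle in the embryo and do not divide again. Cyclin D with its kinases releases E2F factors from the retinoblastoma protein (*Rb1*), and inhibitors of the INK4 family (*Cdkn2d*) and the CIP/KIP family (*Cdkn1a*, *Cdkn1b*) hold those kinases in check. p53 (*Trp53*) turns on *Cdkn1a*, *Gadd45a* and *Rprm*, which slow the cycle at its G1 or G2 steps, and also *Mdm2*, whose product sends p53 to degradation. Loss of *Cdkn2d* or of *Rb1* in mice is known to let hair cells re-enter the cycle and die.

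The level of a gene in a group is given as summed CPM, the counts of the gene over all cells of the group per 1000000 counts of all genes. Total counts per cell ran from 4326416 to 25035444 and fell in a lower set of 51 cells and an upper set of 100 cells. The lower set held 16 of 55 P14_WT IHCs, 12 of 46 P14_iOHCs and 23 of 50 P30_WT IHCs. It went with the cell number in the labels: the lower set was cells 1 to 16 of the P14_WT IHCs and cells 1 to 23 of the P30_WT IHCs, and lay within cells 1 to 18 of the P14_iOHCs. *Tbx2* had 248 CPM in P14_WT IHCs, 66.5 CPM in P14_iOHCs and 193 CPM in P30_WT IHCs. It still had counts in 45 of 46 P14_iOHCs, and whole-gene counts do not show whether the floxed part was lost. *Slc26a5*, the outer hair cell motor gene, reached 1107 CPM in P14_iOHCs and at most 0.140 CPM in the IHC groups, and *Otof*, an IHC synapse gene, had 436 CPM against at least 3532 CPM. Markers of other cell types differed between the groups. Of 16 supporting cell markers, 9 had counts in at least 50% of the P14_iOHCs, 1 in P14_WT IHCs and 3 in P30_WT IHCs. In the iOHC comparison 14 passed the filter on low counts, 8 over 4-fold higher and 1 over 4-fold lower in P14_iOHCs. The lower one was *Tecta*, at 2.04 CPM in P14_iOHCs and 21.9 CPM in P14_WT IHCs. The summed level of the 16 per cell spanned 2281 to 19536 CPM in P14_iOHCs, 3837 to 9147 CPM in P14_WT IHCs and 1002 to 8496 CPM in P30_WT IHCs. Most of it came from *Fbxo2*, which every cell expressed. *Epyc* was at 0 in all P30_WT IHCs. Of 7 glia markers 3 passed the filter on low counts in the iOHC comparison, all 3 over 4-fold higher in P14_iOHCs. No glia marker had counts in more than 6 of 55 P14_WT IHCs, so these 3 passed through the P14_iOHCs. The summed level of the 7 per cell was 0 to 277 CPM in P14_iOHCs, 0 to 77.2 CPM in P14_WT IHCs and 0 to 45.8 CPM in P30_WT IHCs. The 7 fibroblast markers summed to 0 to 4594, 0 to 865 and 0 to 530 CPM per cell in P14_iOHCs, P14_WT IHCs and P30_WT IHCs, with *Pou3f4* at 0 throughout and *Col3a1* at 0 in P14_WT IHCs. *Lum* alone was at 361 CPM over the P14_iOHCs and 61.7 CPM over the P14_WT IHCs. *Pdgfra* went the other way, at 29.45 CPM over the P14_iOHCs and 63.95 CPM over the P14_WT IHCs. Of the 4 fibroblast markers that passed the filter in this comparison, 2 had positive and 2 negative log2 ratios. The 7 immune markers summed to 0 to 164, 0 to 134 and 0 to 115 CPM, with *C1qa* and *Cx3cr1* at 0 at P30. *C1qb* had counts in 38 of 55 P14_WT IHCs, 4 of 46 P14_iOHCs and 3 of 50 P30_WT IHCs. *Cd68* went the other way, at 5.60 CPM in P14_WT IHCs, 8.09 CPM in P14_iOHCs and 14.5 CPM in P30_WT IHCs. In each comparison 3 immune markers passed the filter, 2 with positive and 1 with negative log2 ratios. The part of these markers of other cell types in the member values was not tested, and the genes named here were chosen after their values were seen. A supporting cell score, the mean log2(CPM + 1) of the 16 markers, exceeded the highest P14_WT IHC in 13 of 46 P14_iOHCs and in 0 P30_WT IHCs.

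In GRCm38, the build of the counts, *Rprm* (ENSMUSG00000075334.2) is a single-exon gene of 1460 bases on the minus strand at chr2:54084093-54085552, and no annotated GENCODE M21 gene overlaps it. *Cdkn1a* (ENSMUSG00000023067.14) lies on the plus strand at chr17:29090976-29100727. The 250 bases before the RefSeq start are shown for both, the members with over 4-fold lower levels at P30. For *Rprm* the window is chr2:54085553-54085802 (minus strand, GRCm38.p6, capitals mark the GC box read on the opposite strand), and for *Cdkn1a* chr17:29090729-29090978 (plus strand, first of 2 RefSeq starts, capitals mark p53 decamers).
Rprm: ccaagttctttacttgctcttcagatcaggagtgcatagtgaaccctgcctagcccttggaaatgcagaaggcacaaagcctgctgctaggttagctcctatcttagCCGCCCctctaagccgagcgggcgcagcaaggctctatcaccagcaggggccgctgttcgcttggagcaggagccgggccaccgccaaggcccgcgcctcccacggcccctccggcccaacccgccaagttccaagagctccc
Cdkn1a: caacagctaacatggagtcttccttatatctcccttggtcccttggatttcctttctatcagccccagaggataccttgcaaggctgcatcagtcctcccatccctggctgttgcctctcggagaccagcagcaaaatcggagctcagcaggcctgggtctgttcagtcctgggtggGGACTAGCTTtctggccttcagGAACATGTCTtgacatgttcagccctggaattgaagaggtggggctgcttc
Motifs were searched on both strands from 250 bases before to 50 bases after the start, and 8 of 10 members had an entry. The T-box motif GGTGTGA, the kind of site that Tbx proteins bind, was in none of the *Rprm* letters and in 3.98% of 32851 promoters, and among the members only the second *Cdkn1a* start had it, 15 bases after the start. The GC box GGGCGG was in the *Rprm* window and in 35.7% of all promoters. The decamer to which p53 binds in pairs was in 8.36% of promoters, and 0.359% held at least 2. The first *Cdkn1a* start had 2, at 73 and 51 bases before it, *Trp53*, *Cdkn2d*, *Gadd45a* and *Mdm2* had 1 each, and *Rprm* had 0. The p53 decamer overlaps no letters of the other motifs in the windows shown.

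*Rprm* was abundant in P14_WT IHCs and near 0 in most cells of the other groups. Its level was 633 CPM (95% counting interval 632 to 635) in P14_WT IHCs, 3.62 CPM (3.49 to 3.77) in P14_iOHCs and 2.69 CPM (2.57 to 2.82) in P30_WT IHCs. Per transcript length it had 1065 TPM in P14_WT IHCs, order 108 of the 53186 genes with a length, and 5.46 TPM and 4.32 TPM in the other groups. Over the P14_WT IHCs the lowest, median and highest values were 0, 426 and 1959 CPM, over P14_iOHCs 0, 0 and 47.4 CPM, and over P30_WT IHCs 0, 0 and 133 CPM. The ranges overlapped at their low ends only: 47 of 55 P14_WT IHCs lay above every P14_iOHC and 41 above every P30_WT IHC. The log2 ratio to P14_WT IHCs was -7.45 (-7.51 to -7.39) in P14_iOHCs, which is 175-fold lower, and -7.88 (-7.95 to -7.81) in P30_WT IHCs, which is 235-fold lower. By log2 ratio it stood at position 55 from the lowest of 13673 genes in the first comparison and 31 of 12946 in the second. Both comparisons use the same P14_WT IHCs.

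**Figure D1:**
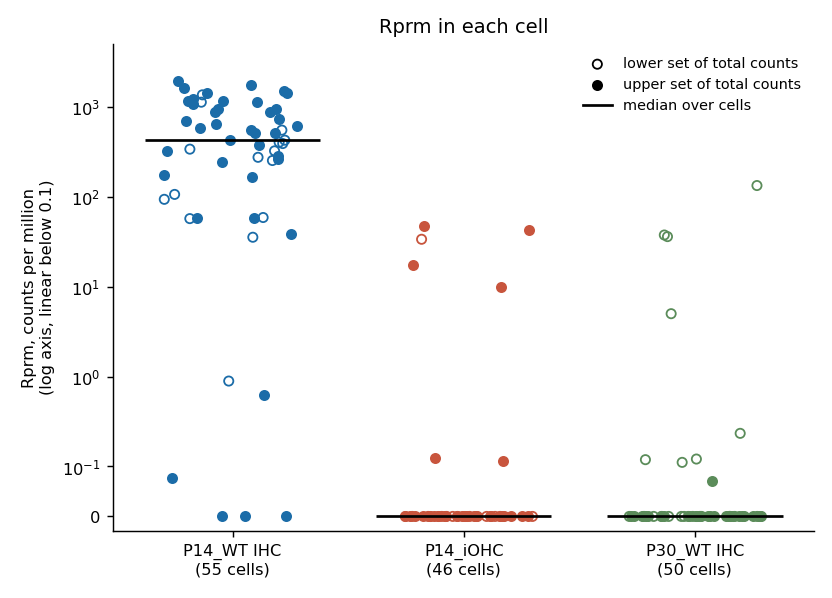
*Rprm* in CPM (vertical axis, logarithmic above 0.1) in each cell of the 3 groups, with open points for the lower and filled points for the upper set of total counts and a black line at the median. Nearly all P14_WT IHCs lie at 35.5 CPM or more, and the cells above 1 CPM in the other groups are 5 P14_iOHCs and 4 P30_WT IHCs.

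The P14_WT IHCs themselves were uneven in *Rprm*. Counts were present in 52 of 55 cells, or 94.5% (Clopper-Pearson 95% interval 84.9 to 98.9%). Of these cells 49 had at least 35.5 CPM, 42 had at least 100 CPM and 13 had at least 1000 CPM, while 3 cells had between 0 and 0.891 CPM and 3 had no count. The SD over the cells was 0.904 of the mean, against 0.306 for *Cdkn2d*, 0.511 for *Cdkn1a* and 0.710 for *Gadd45a*. All 16 P14_WT IHCs of the lower set had counts, and the 3 cells at 0 were in the upper set.

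Nearly all *Rprm* counts of the P14_iOHCs came from 5 cells of high supporting cell score. Counts were present in 7 of 46 P14_iOHCs, or 15.2% (6.34 to 28.9%). The 5 with at least 10 counts, at 10.0 to 47.4 CPM, had supporting cell scores of 4.49 to 6.41, against a highest value of 4.32 in P14_WT IHCs. The other 2 cells had 2 counts each, at scores of 1.96 and 2.115. Counts were more frequent at a high score, in 5 of the 13 P14_iOHCs above the highest P14_WT IHC against 2 of the other 33. Most cells of high score still had none, and the median over the 13 was 0. Without the 13 P14_iOHCs of high score, the remaining 33 held 4 counts in all, 0.00816 CPM, and the log2 ratio was -16.24 (-18.12 to -14.89). The *Slc17a8* level of the 5 cells was 0 to 31.2 CPM, beside a median of 34.6 CPM over all P14_iOHCs and a lowest P14_WT IHC at 470 CPM. The part of supporting cell RNA in these counts was not tested.

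At P30 the cells with *Rprm* were mostly libraries of lower total count. Counts were present in 9 of 50 P30_WT IHCs, or 18% (8.58 to 31.4%), and 8 of the 9 belonged to the lower set. In the lower set 8 of 23 cells had counts, at 9.71 CPM in sum, and in the upper set 1 of 27 cells had a single count. A single cell held 63.0% of the P30 counts, with 1110 counts at 133 CPM. Within the lower set the log2 ratio to P14_WT IHCs was -5.21 (-5.28 to -5.14), and within the upper set, where it rests on that 1 count, -18.3 (-23.6 to -15.8). Among P14_WT IHCs the lower set also had less *Rprm*, 360 CPM against 683 CPM. What else differs between the sets of libraries is not in the labels, and its part was not tested.

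The genes whose level over cells was most like that of *Rprm* were sought by Pearson's r of log2(CPM + 1). Across the cells of all groups and 14783 genes they were *Slc34a3*, a sodium phosphate cotransporter (r = 0.76), *Gm35248*, a long noncoding RNA (0.75), *Gm1113* (0.73), *Fgf8*, a fibroblast growth factor of IHCs (0.68), and *Fxyd2*, a regulator of the sodium pump (0.67). These cells share their groups, so the values mostly carry the difference between groups. Within the 55 P14_WT IHCs and 11171 genes they were *Gm1113* (0.76), *Fgf8* (0.71), *Kcnj13*, an inward rectifier potassium channel (0.71), *Crip2* (0.66) and *Ppia* (0.64), of which *Ppia* has many near-identical pseudogenes that could share its reads. *Gm1113* had a median of 516 CPM in P14_WT IHCs and 0 in both other groups, but counts in 23 of 50 P30_WT IHCs, the highest of which, at 2273 CPM, was above every P14_WT IHC. *Slc34a3* had a median of 137 CPM in P14_WT IHCs, with counts in 54 of 55 cells, and 0 in P14_iOHCs and P30_WT IHCs, with counts in 12 of 46 and 3 of 50. *Fgf8* followed another course: its medians were 97.9, 17.2 and 0 CPM in P14_WT IHCs, P14_iOHCs and P30_WT IHCs, with counts in 50 of 55, 37 of 46 and 5 of 50 cells. *Kcnj13* had a median of 368 CPM in P14_WT IHCs and 190 CPM in P14_iOHCs, and had counts in 3 of 50 P30_WT IHCs.

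*Rprml* (ENSMUSG00000046215.3, chr11:103649570-103650579, plus strand), the single-exon paralogue of *Rprm*, was not detectable in IHCs. It had 0 counts in all 55 P14_WT IHCs and all 50 P30_WT IHCs, and 3 counts over those groups would be 0.00379 and 0.00458 CPM. Its 129 counts came from 1 P14_iOHC, at 8.27 CPM. That cell had no *Rprm* count, a supporting cell score of 5.99, and the highest *Cdkn1a* (884 CPM) and *Cdkn1b* (74.96 CPM) of all P14_iOHCs. It had 11760 genes detected, order 3 of 46.

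Among the kinase inhibitors, *Cdkn2d* (chr9:21288410-21291407), whose product p19 INK4d binds the cyclin D kinases, was the steadiest and most abundant member. It had counts in every cell of every group and the highest TPM of the 10 members in each, 1369, 682 and 984 TPM in P14_WT IHCs, P14_iOHCs and P30_WT IHCs. The lowest, median and highest values were 348, 823 and 1616 CPM in P14_WT IHCs, 153, 501 and 1090 CPM in P14_iOHCs, and 200, 627 and 1391 CPM in P30_WT IHCs. The groups overlapped broadly, yet 41 of 46 P14_iOHCs and 40 of 50 P30_WT IHCs lay below the P14_WT IHC median. The log2 ratios were -0.85 (-0.85 to -0.84) and -0.41 (-0.42 to -0.40). P14_iOHCs of high supporting cell score had less *Cdkn2d*, 391 CPM against 531 CPM in the other 33.

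*Cdkn1a*, the gene of the p53-induced inhibitor p21, was in every P14_WT IHC and was lower by P30. The lowest, median and highest values were 42.7, 250 and 749 CPM in P14_WT IHCs, 0, 129 and 884 CPM in P14_iOHCs, and 0, 40.8 and 430 CPM in P30_WT IHCs. Of the P30_WT IHCs 26 of 50 lay below every P14_WT IHC and 47 below their median, and of the P14_iOHCs 12 of 46 lay below every P14_WT IHC while 2 lay above all of them. The level was 289 CPM in P14_WT IHCs, 194 CPM in P14_iOHCs (log2 ratio -0.58, -0.59 to -0.57) and 52.5 CPM in P30_WT IHCs (-2.46, -2.48 to -2.45). At P30 it also went with the set of totals: 106 CPM in the lower set and 31.9 CPM in the upper, with log2 ratios of -1.35 and -3.20 to P14_WT IHCs of the same set. In P14_iOHCs it went with supporting cell score, at 364 CPM in the 13 cells of high score and 118 CPM in the other 33, and its r with the score was 0.65, with a dissociation score (mean log2(CPM + 1) of 14 immediate-early and heat shock genes) 0.60 and with genes detected 0.59. The same 3 values in P14_WT IHCs were 0.19, -0.04 and 0.24. A transcript without a gene symbol on the other strand overlaps 273 exon bases of *Cdkn1a*, and without strand in the counts the reads of both cannot be told apart there.

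*Cdkn1b* (chr6:134920401-134925513), which encodes the inhibitor p27 that supporting cells are known to carry, was scarce. Its level was 4.04 CPM in P14_WT IHCs, 8.86 CPM in P14_iOHCs and 3.67 CPM in P30_WT IHCs, with counts in 30 of 55, 33 of 46 and 33 of 50 cells. The medians were 0.0945, 0.572 and 0.171 CPM and the highest cells 54.4, 74.96 and 34.3 CPM, so the groups overlapped over nearly their whole range. The log2 ratio of 1.13 (1.07 to 1.19) in P14_iOHCs rested on the cells of high supporting cell score, which had 20.9 CPM against 3.46 CPM in the other 33, and those 33 alone gave -0.22 (-0.31 to -0.14). The log2 ratio at P30 was -0.14 (-0.22 to -0.06), and 0.13 with the scaling of DESeq2.

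**Figure D2:**
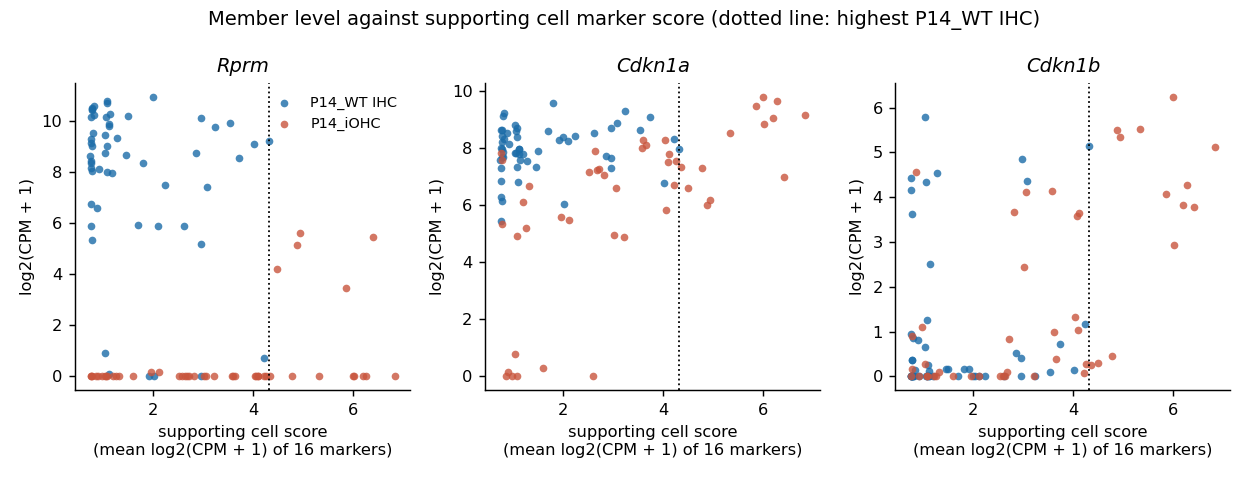
Level of *Rprm*, *Cdkn1a* and *Cdkn1b* as log2(CPM + 1) (vertical axes) against the supporting cell score (horizontal axes) in the P14_WT IHCs and P14_iOHCs, with a dotted line at the highest P14_WT IHC. The 5 P14_iOHCs with at least 10 *Rprm* counts and the highest *Cdkn1a* and *Cdkn1b* values of P14_iOHCs lie to the right of the line.

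*Trp53* (chr11:69580359-69591873), the p53 gene itself, had counts in a minority of cells everywhere: 19 of 55 P14_WT IHCs, 19 of 46 P14_iOHCs and 16 of 50 P30_WT IHCs. All 3 medians were 0, and the highest cells had 75.3, 318 and 59.0 CPM. The levels were 11.6, 15.2 and 5.06 CPM, with log2 ratios of 0.38 (0.34 to 0.42) and -1.20 (-1.26 to -1.15). A single P14_iOHC held 38.4% of the group's *Trp53* counts, and with the top cell of each group left out the ratio was -0.10.

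*Mdm2* (chr10:117688875-117710758), the gene of the ligase that degrades p53, was the member with the most cells above the P14_WT IHC range in P14_iOHCs. The lowest, median and highest values were 0, 121 and 269 CPM in P14_WT IHCs, 0, 168 and 444 CPM in P14_iOHCs, and 0, 64.1 and 318 CPM in P30_WT IHCs. Of the P14_iOHCs 11 of 46 lay above every P14_WT IHC and 32 above their median, while 37 of 50 P30_WT IHCs lay below it. The log2 ratios were 0.71 (0.70 to 0.72) and -0.47 (-0.48 to -0.45). *Mdm2* did not move with the supporting cell score in P14_iOHCs as *Cdkn1a* did: it stood at 144 CPM in the 13 cells of high score and 202 CPM in the other 33.

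*Gadd45a* (chr6:67035096-67037457), a p53 target that binds cell-cycle and repair proteins, was lower in both groups than in P14_WT IHCs. The lowest, median and highest values were 0, 50.5 and 158 CPM in P14_WT IHCs, 0, 4.83 and 126 CPM in P14_iOHCs, and 0, 5.31 and 120 CPM in P30_WT IHCs. Counts were present in 53 of 55, 29 of 46 and 35 of 50 cells. The ranges overlapped almost entirely, and 43 of 46 P14_iOHCs and 48 of 50 P30_WT IHCs were below the P14_WT IHC median. The log2 ratios were -1.89 (-1.92 to -1.86) and -1.61 (-1.64 to -1.58). The first depended on the libraries: *Gadd45a* had 27.3 CPM in the lower set of P14_WT IHCs and 61.1 CPM in the upper, and the ratio was -0.41 in the lower set and -2.11 in the upper. A noncoding transcript on the other strand shares 337 exon bases with it.

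*Rb1* (chr14:73183673-73325822), the retinoblastoma gene, was nearly level across the groups. Its levels were 48.01 CPM in P14_WT IHCs, 57.2 CPM in P14_iOHCs and 50.3 CPM in P30_WT IHCs, with medians of 33.5, 38.7 and 41.03 CPM, highest cells of 143, 235 and 241 CPM, and 0 in the lowest cell of each. The log2 ratios were 0.25 (0.23 to 0.27) and 0.07 (0.04 to 0.09), and the second was negative within the upper set of totals. *Lpar6* and *Rcbtb2* on the other strand share 408 and 488 exon bases with *Rb1*. *Ccnd1* (chr7:144929931-144939925), the cyclin D1 gene that acts against *Rb1*, was almost undetected, with 53, 72 and 81 counts in all in P14_WT IHCs, P14_iOHCs and P30_WT IHCs, in 3, 5 and 5 cells.

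**Figure D3:**
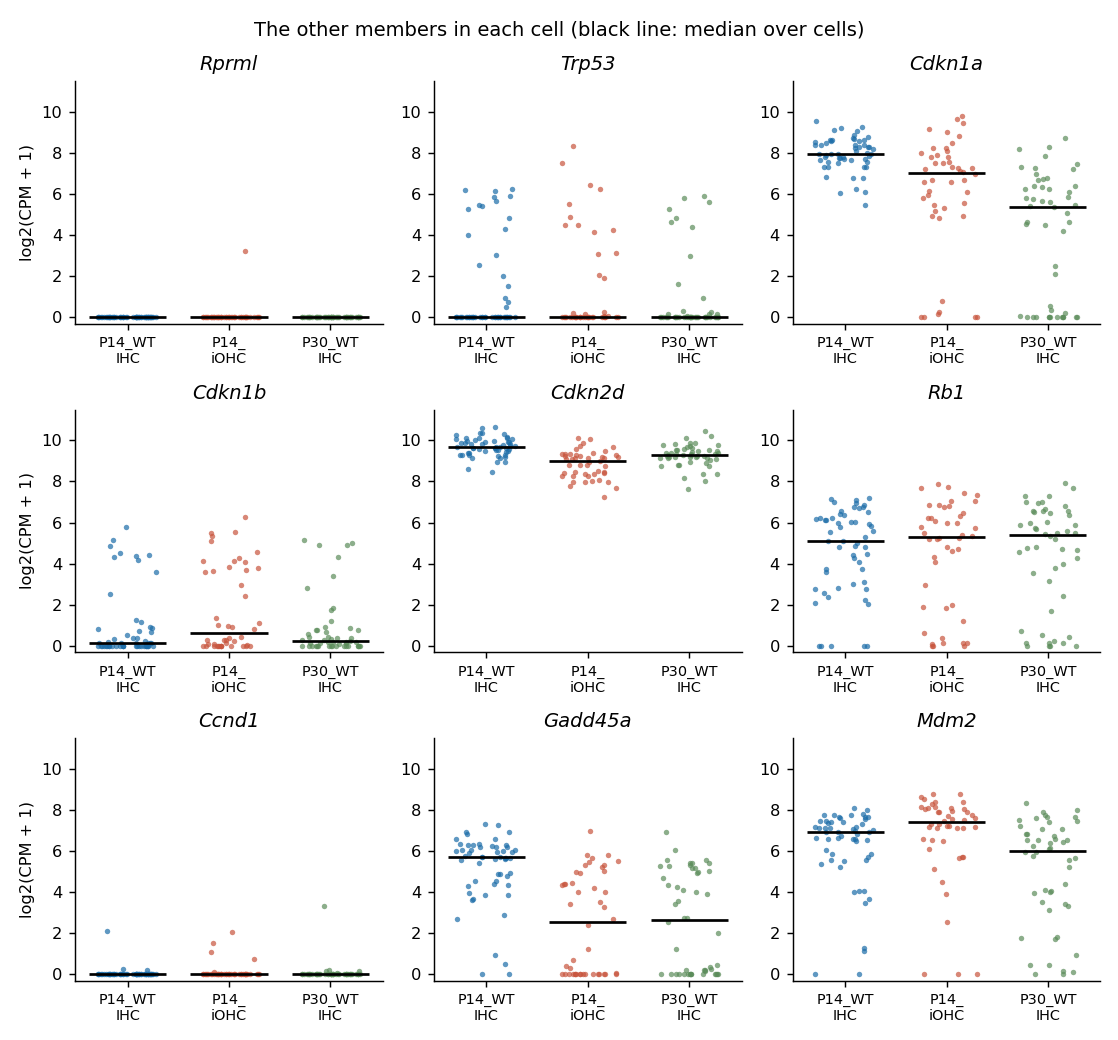
The 9 members other than *Rprm* in each cell as log2(CPM + 1) (vertical axes) in the 3 groups, with a black line at the median over cells. *Cdkn2d* is in every cell of all groups, *Cdkn1a* and *Gadd45a* have lower medians in P14_iOHCs and P30_WT IHCs, and *Rprml* and *Ccnd1* are at 0 in nearly all cells.

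Across the members, 8 of 10 passed the filter on low counts, a minimum of 5 counts in 10 or more of the compared cells, and *Rprml* and *Ccnd1* did not. In P14_iOHCs 1 member was over 4-fold lower, *Rprm*, where 5.16% of all 13673 genes that passed were, and 0 were over 4-fold higher, where 8.86% were. In P30_WT IHCs 2 members were over 4-fold lower, *Rprm* and *Cdkn1a*, where 3.29% of 12946 genes were, and 0 were over 4-fold higher, where 2.71% were. Since *Rprm* was chosen by these values, nothing is read from its count. The median log2 ratio of the 8 members, *Rprm* included, was -0.16 in P14_iOHCs, beside 0.09 over all genes. Of these members 4 were higher and 4 lower, *Rprm* among the lower, where 45.5% of all genes were lower. At P30 the median was -0.83, again with *Rprm*, beside -0.01 over all genes. *Rb1* alone was above 0, where 50.5% of all genes were below 0. With DESeq2 scaling *Cdkn1b* was at 0.13 at P30, and within the upper set *Rb1* was at -0.05. Since *Rprm* is among them, nothing is read from these medians and counts. With the scaling of DESeq2 the median of all genes at P30 moved by 0.27 and calls that were lower went from 54.8% to 40.8% of all calls.

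**Figure D4:**
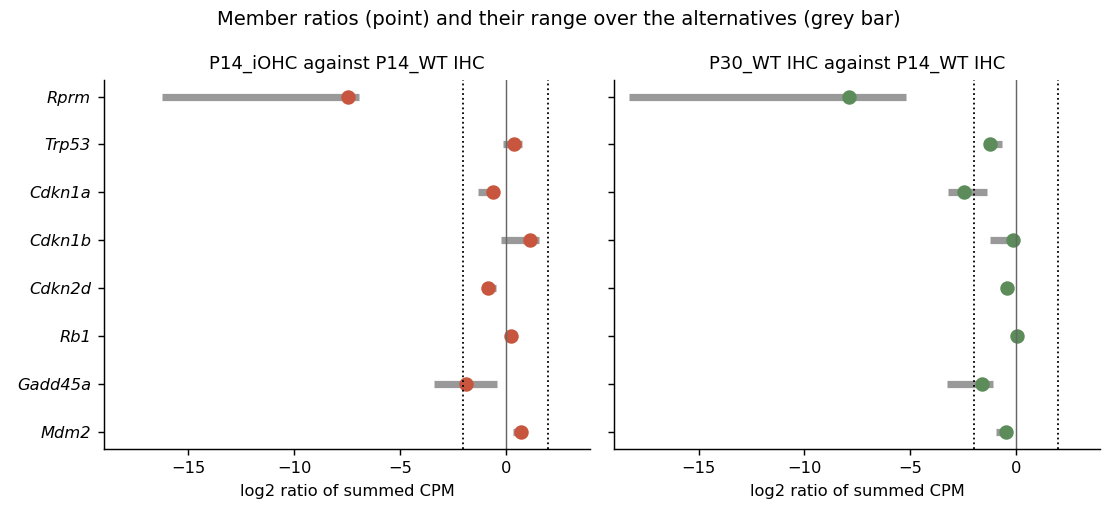
Log2 ratio of summed CPM (horizontal axes) of the 8 members that passed the filter, for P14_iOHCs and for P30_WT IHCs against P14_WT IHCs, with grey bars for the range over the alternative settings and dotted lines at the 4-fold limit. *Rprm* lies beyond the limit under every setting, at -6.95 or lower and at -5.21 or lower, and the bars of *Gadd45a* in both panels and of *Cdkn1a* at P30 cross it.

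The wider cell-cycle lists, which were written with earlier results known, were mostly at low levels. Of 7 kinase inhibitor genes 3 passed the filter, all of them members. *Cdkn2a*, the p16 gene, had 2 counts over all cells, and *Cdkn1c*, *Cdkn2b* and *Cdkn2c* had counts in at most 8 cells of any group. Among 13 pocket protein and E2F genes 10 passed and 0 were past 4-fold in either comparison, with medians of 0.33 and 0.42. Those with the highest TPM in P14_WT IHCs were *E2f5*, with log2 ratios of 0.62 and 0.49, and the mainly repressive *E2f4*, with -0.01 and 0.35.

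The G1 cyclins and kinases differed from one another. Of 8 genes 5 passed in P14_iOHCs, and *Ccne1*, the cyclin E1 gene, was over 4-fold lower with a log2 ratio of -3.58 (-3.63 to -3.53). It had 52.4 CPM and counts in 32 of 55 P14_WT IHCs, 4.38 CPM and 9 of 46 P14_iOHCs, and 49.2 CPM and 29 of 50 P30_WT IHCs. *Cdk4*, the cyclin D kinase gene, was at 65.2, 65.5 and 37.3 CPM. *Ccnd3*, chosen after its values were seen, was the cyclin D gene present in these cells, with counts in 53 of 55, 42 of 46 and 45 of 50 cells.

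Of 13 genes of G2 and mitosis, 9 were too sparse to compare in P14_iOHCs. The 4 that passed the filter had positive log2 ratios, as did 7447 of all 13673 genes. Of the 4, 2 were over 4-fold higher, where 8.86% of all genes were. The filter counted cells of both groups together. *Cdc25b* had counts in 9 of 55 P14_WT IHCs and 23 of 46 P14_iOHCs, and *Cdc25a* in 6 and 16. Genes this scarce in P14_WT IHCs could not pass without the P14_iOHCs, so nothing is read from the common sign. *Plk1*, a mitotic kinase gene, had 14.2 CPM in P14_WT IHCs and 72.8 CPM in P14_iOHCs (log2 ratio 2.36, 2.33 to 2.39), with counts in 14 of 55 and 38 of 46 cells, and was at 2.45 without the 13 cells of high supporting cell score. *Cdc25b*, whose product activates the mitotic kinase, had 5.06 and 21.9 CPM (2.12), and 1.91 without those cells. The other 2 were *Cdc25a* (1.58) and *Ccnb2*, the cyclin B2 gene, with 1.82 and 4.64 CPM (1.35) and counts in 9 of 55 and 15 of 46 cells. At P30 *Cdc25a* was past 4-fold higher, with 12.6 CPM against 2.88 CPM, in 17 of 50 against 6 of 55 cells. There it passed the filter through the P30_WT IHCs. *Cdk1*, the mitotic kinase gene, had counts in 2, 3 and 6 cells and *Ccnb1*, the cyclin B1 gene, in 1, 5 and 8 cells of P14_WT IHCs, P14_iOHCs and P30_WT IHCs, and *Ccnb1*, *Ccnb2* and *Cdk1* were chosen after their values were seen.

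Of 13 proliferation markers 8 passed in P14_iOHCs, with 1 past 4-fold in each direction. *Rrm2*, the small subunit gene of ribonucleotide reductase, was lower at 3.45 CPM against 36.6 CPM (log2 ratio -3.41, -3.47 to -3.35), with counts in 13 of 46 against 42 of 55 cells, and was at 15.2 CPM in P30_WT IHCs. *Cenpf*, a centromere protein gene, was higher at 6.06 CPM against 0.947 CPM, of which a single P14_WT IHC held 99.9%. It had counts in 12 of 46 P14_iOHCs and 2 of 55 P14_WT IHCs, and so passed the filter through the P14_iOHCs. *Pcna*, the replication clamp gene, had 52.1, 44 and 46.7 CPM, and *Mki67*, chosen after its values were seen, had counts in 2, 3 and 3 cells of the groups.

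The p53 targets showed no common direction. Of 30 genes 22 passed in P14_iOHCs, 13 with positive and 9 with negative log2 ratios (median 0.10), and 20 passed at P30, 10 in each direction (median -0.16). Past 4-fold in P14_iOHCs were *Rprm* and, higher, *Plk2*, a stress-induced polo-like kinase gene, with 28 counts in 1 P14_WT IHC and 17493 counts in 23 of 46 P14_iOHCs (0.0354 and 24.7 CPM, log2 ratio 9.45, 8.91 to 10.04). The *Plk2* ratio was 9.71 without the cells of high supporting cell score. With counts in 1 P14_WT IHC, *Plk2* passed the filter through the P14_iOHCs. Past 4-fold lower at P30 were *Rprm*, *Cdkn1a* and *Bbc3*, the gene of the cell death protein Puma, with 1.25 CPM against 8.90 CPM (-2.83) in 11 of 50 against 18 of 55 cells. *Btg2*, an antiproliferative gene, had 270, 148 and 341 CPM. Among 11 genes of the p53 family and its regulators 8 passed and 0 were past 4-fold, and *Usp7*, a deubiquitinase gene that acts on Mdm2, had log2 ratios of 0.43 and 0.31. *Gadd45g*, the relative of *Gadd45a*, moved apart from it, with 20.7, 28.6 and 80.9 CPM.

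**Figure D5:**
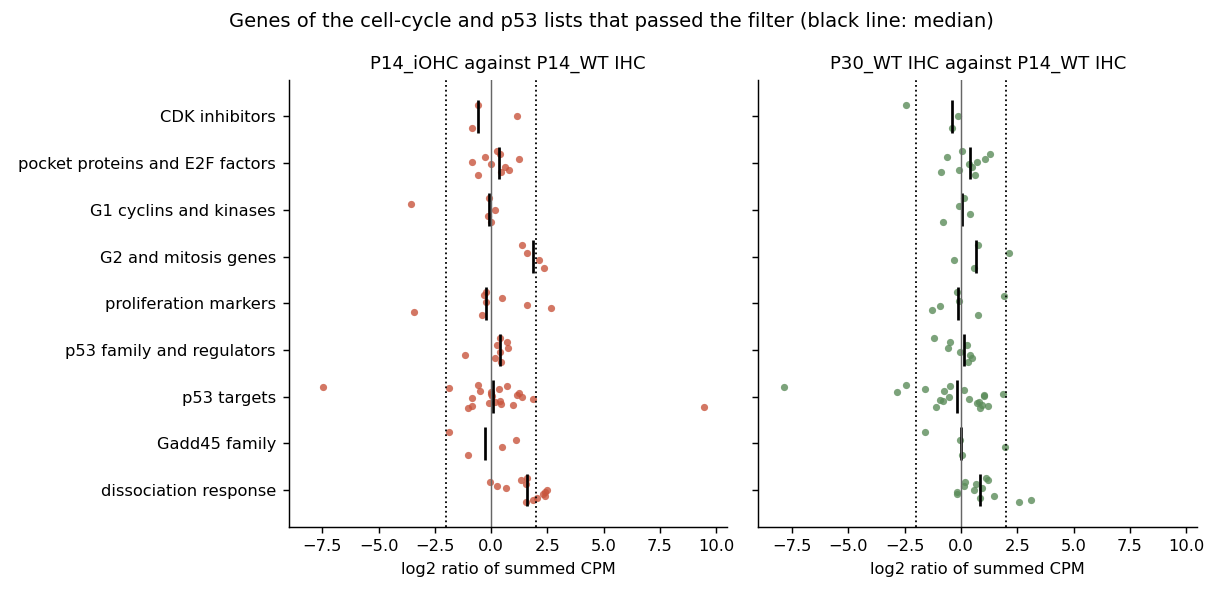
Log2 ratios of summed CPM (horizontal axes) of the genes that passed the filter in 9 lists, for P14_iOHCs and for P30_WT IHCs against P14_WT IHCs, with a black line at each list's median and dotted lines at the 4-fold limit. In the p53 targets *Rprm* at -7.45 and *Plk2* at 9.45 stand apart from the rest, and the dissociation genes lie mostly above 0 in both panels.

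Genes of the response to dissociation were mostly higher in both groups than in P14_WT IHCs. Of 14 such genes 13 passed. In P14_iOHCs 12 of them had positive log2 ratios (median 1.58), as did 7447 of all 13673 genes. At P30 11 had positive log2 ratios (median 0.85), as did 6403 of all 12946 genes. *Atf3*, *Ier2* and *Nr4a1* had log2 ratios of 2.49, 2.42 and 2.41 in P14_iOHCs, and 0.33, 0.96 and 0.82 without the 13 cells of high supporting cell score. *Hspa1a* and *Hspa1b*, the inducible heat shock genes, had 3.11 and 2.57 at P30. The highest TPM of the list in P14_WT IHCs were those of *Jun*, with log2 ratios of -0.06 and 0.16, and *Fos*, with 1.58 and 1.12. Without the 13 P14_iOHCs of high supporting cell score the first *Fos* ratio was 0.20. The dissociation score exceeded the highest P14_WT IHC in 11 of 46 P14_iOHCs and 11 of 50 P30_WT IHCs, and its part in the member values was not tested.

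Cell to cell, the pairs of members had low correlations in P14_WT IHCs. Over the 28 pairs of members with enough cells in P14_WT IHCs, Pearson's r of log2(CPM + 1) ran from -0.22 to 0.20, with a median of 0.06. In P14_iOHCs 21 pairs ran from -0.31 to 0.35, the highest being *Cdkn1a* with *Cdkn1b*, which both went with the supporting cell score (r of 0.65 and 0.64). In P30_WT IHCs 21 pairs ran from -0.25 to 0.34, the highest being *Cdkn1a* with *Rb1*. In P14_WT IHCs *Rprm* had r of 0.09 with *Cdkn1a*, 0.19 with *Cdkn2d*, 0.17 with *Gadd45a*, 0.14 with *Trp53* and -0.20 with *Tbx2*. Its r there was -0.36 with the dissociation score and -0.22 with the supporting cell score. The cells of a group differ in depth, and weak correlations in sparse counts are given as values only.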

How the data were processed

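The authors prepared 1 Smart-Seq HT library for each picked cell and deposited reads per gene as counts, whole numbers without normalization. The submitters' processing notes name Trimmomatic 0.39, FastQC 0.11.9, HISAT2 2.1.0, HTSeq 0.10.0 and StringTie 1.3.5 and the mm10 build. The annotation release, strandedness and treatment of multiply aligned reads are not given in the sources used here. Cells were grouped by the labels.

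For this work, counts were summed over the cells of a group and divided by summed totals (CPM). Ratios have exact conditional 95% intervals, levels exact Poisson and shares Clopper-Pearson intervals. "Past 4-fold" is an absolute log2 ratio above 2, among genes that reached 5 counts in 10 or more of the compared cells. A floor of 3 counts over the group stood for 0. The same floor per cell was used for medians. TPM used union exon lengths of GENCODE M21 for 53186 genes. Total counts per cell had a median of 15557333, and 3 counts corresponded to 0.120 to 0.693 CPM in single cells. No pair of libraries was identical. Alternatives were, for shares of cells, thinning of every cell to 4000000 counts, and for ratios TMM (edgeR 4.0.16) and DESeq2 1.42.0 scaling, mean and median CPM, each set of totals, no filter and a 2-fold limit. Promoters came from RefSeq (GRCm38.p6). On simulated counts the ratio code was tested for both comparisons. Python 3.11.15 (numpy 2.4.6, pandas 2.3.3, scipy 1.17.1, matplotlib 3.10.9) and R 4.3.3 were used.

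The genes named are the 10 members, up to 3 genes past 4-fold in each direction from each list, the 2 of highest TPM in P14_WT IHCs, and the 5 most like *Rprm*. The members and lists were chosen with earlier results of these data known. No p-values were computed.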

Additional observations from a re-analysis of the deposited data

How the results depend on the processing

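The log2 ratio of *Rprm* kept its sign and stayed past 4-fold under every alternative. Against the value of -7.45 for P14_iOHCs it was -7.39 with TMM scaling, -11.17 with medians over cells (iOHC median at the floor of 3 counts), -6.95 in the lower and -7.51 in the upper set of totals, -7.95 without the cell of most counts in each group and -16.24 without the 13 P14_iOHCs of high supporting cell score, which was chosen after seeing the data. Against -7.88 for P30_WT IHCs it was -7.61 with DESeq2 scaling, -7.11 with mean CPM, -10.94 with medians, -5.21 in the lower set, -18.3 in the upper set (from 1 count) and -9.23 without the top cell. The share of P30_WT IHCs with *Rprm* was 8.0% with at least 10 counts, against 18%. Members over 4-fold lower in P14_iOHCs were 2 in place of 1 with medians, in the upper set (*Gadd45a* added) and at a 2-fold limit, and those higher were 1 in place of 0 without the filter (*Rprml*) and at the 2-fold limit (*Cdkn1b*). At P30 the members lower were 1 in place of 2 in the lower set, where *Cdkn1a* fell short, 3 with medians (*Gadd45a* added) and 4 at the 2-fold limit. Over all 16 member ratios, 109 of 141 alternative values lay outside the counting interval of the value given, 32 lay inside, and signs changed for *Trp53* and *Cdkn1b* in P14_iOHCs and *Cdkn1b* and *Rb1* at P30. With medians, calls that were lower went from 36.8% to 61.5% of all calls in P14_iOHCs and from 54.8% to 84.8% at P30, and without the cells of high supporting cell score the first was 51.4%. Of all genes, 705 were over 4-fold lower in P14_iOHCs, and 1411 with medians, 1715 in the lower set, 4044 without the filter and 1782 at the 2-fold limit, while 1212 were higher, and 5261 without the filter and 2596 at the 2-fold limit. At P30 426 were lower, and 1549 with medians, 959 in the lower set, 678 in the upper set, 720 without the top cell, 4042 without the filter and 1413 at the 2-fold limit, while 351 were higher, and 902 in the lower set, 3386 without the filter and 1289 at the 2-fold limit. The cause of these shifts was not tested.

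No paired analysis was possible because no test was made, and the labels do not say that cells of 1 number belong together. The number does go with the set of totals, which was used as an alternative. Library depth limits the scarce members: over a group, 3 counts were 0.00379 to 0.00458 CPM, and only *Rprml* in the IHC groups, at 0 counts, was below it. The spread between mice cannot be had from cells whose animal is not given.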
